A study of Mus musculus with 3 samples.

Results

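The genes described here are 10 genes of the major histocompatibility complex (MHC) class I antigen presentation pathway, found by their symbols among the 34591 gene symbols of a table of RNA sequencing counts. They are the heavy chains H2-K1 and H2-D1, the light chain B2m, the peptide transporter subunits Tap1 and Tap2, the loading factor Tapbp, the immunoproteasome subunits Psmb8, Psmb9 and Psmb10, and the transactivator Nlrc5. All 10 symbols were in the table. The cells were 4T1, an established line from a mammary carcinoma of the mouse, made to over-express WISP2 (genotype WISP2 OE), a secreted matricellular protein. All 3 libraries belong to that group. According to the design text it was set against cells carrying an empty vector, and control libraries were not used here. The values are therefore levels in WISP2 over-expressing cells and no change caused by WISP2. The labels name RPMI with 10% FCS as the growth medium. They describe transduction and puromycin selection for Wisp1 constructs, not for WISP2, and they mention no interferon treatment. No source says whether the lines came from 1 clone, or the libraries from separate cultures, so every spread given here may be technical.

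The libraries, called C1, C2 and C3 after the suffixes of their columns, held 17630755, 67028365 and 47577315 counts. Levels are counts per 1000000 counts of the library (CPM). Wisp2, the over-expressed gene, had 429, 384 and 454 CPM, which checks the label only in part because no control library was compared. Ratios between genes are taken from CPM per kb of annotated exon unless another basis is named, and CPM itself is not corrected for length. The epithelial markers Krt8, Krt18, Krt7, Cdh1, Epcam and Cldn4 were all at 1 CPM or more in every library, as the label of a carcinoma line requires. Markers of other cell types were scarce. Of 14 leukocyte markers 2 (Lyz2 and Cd68) were at 1 CPM or more throughout, 9 were below it in at least 1 library, and the rest, among them Cd3e and Nkg7, had 0 counts. Of those 9, Emr1, Csf1r and Laptm5 exceeded 1 CPM in C1, at 1.76, 1.42 and 1.13 CPM from 31, 25 and 20 counts, and not in C2 or C3. All 4 endothelial and all 6 fibroblast markers were below 1 CPM in at least 1 library, with 19 and 115 counts in all, and Lum and Thy1 had none. The summed leukocyte markers were uneven, at 20.4, 10.0 and 10.4 CPM in C1, C2 and C3. Lyz2 alone had 9.42, 3.12 and 3.78 CPM, and Cd68 5.56, 5.15 and 4.27 CPM.

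Class I molecules show peptides from inside the cell to CD8 T cells. Proteasomes cut proteins into peptides, the TAP transporter carries them into the endoplasmic reticulum, and there the loading complex places them on a heavy chain bound to beta-2-microglobulin. Interferon-gamma is the classical inducer of the pathway, and NLRC5 acts with RFX proteins bound to conserved upstream elements of class I genes. In many tumours parts of the pathway are expressed weakly, which is known as a route of escape from T cells.

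Of the members, 8 had an upstream window in the RefSeq promoter table, on build GRCm38.p6 (the submitters' processing notes name mm9), and Tap2 and Nlrc5 are named only. The 250 bases before the annotated start are shown for the heavy chains and the light chain, because these carry the elements through which class I genes are known to be controlled. The Tap1 window is shown because Psmb9 starts from the same stretch. Capitals mark matches on either strand to 7 motifs that were chosen after the sequences had been seen. H2-K1 lies at chr17:34000348-34000597 on the minus strand, H2-D1 at chr17:35262844-35263093 on the plus strand, B2m at chr2:122147437-122147686 on the plus strand and Tap1 at chr17:34187306-34187555 on the plus strand.
H2-K1: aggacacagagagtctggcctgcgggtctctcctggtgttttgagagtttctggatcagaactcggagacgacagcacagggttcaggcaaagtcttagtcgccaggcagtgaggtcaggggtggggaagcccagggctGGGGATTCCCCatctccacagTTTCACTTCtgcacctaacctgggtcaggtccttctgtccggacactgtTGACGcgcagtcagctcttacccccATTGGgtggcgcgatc
H2-D1: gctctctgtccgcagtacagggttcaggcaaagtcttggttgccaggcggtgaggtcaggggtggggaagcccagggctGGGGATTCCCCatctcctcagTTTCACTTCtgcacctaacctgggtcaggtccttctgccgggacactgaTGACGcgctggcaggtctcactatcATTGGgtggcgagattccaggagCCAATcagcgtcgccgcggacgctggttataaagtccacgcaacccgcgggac
B2m: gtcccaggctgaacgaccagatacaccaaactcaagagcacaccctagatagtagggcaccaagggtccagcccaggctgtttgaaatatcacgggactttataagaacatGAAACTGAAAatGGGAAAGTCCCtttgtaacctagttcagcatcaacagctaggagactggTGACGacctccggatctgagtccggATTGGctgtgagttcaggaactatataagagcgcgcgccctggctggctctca
Tap1: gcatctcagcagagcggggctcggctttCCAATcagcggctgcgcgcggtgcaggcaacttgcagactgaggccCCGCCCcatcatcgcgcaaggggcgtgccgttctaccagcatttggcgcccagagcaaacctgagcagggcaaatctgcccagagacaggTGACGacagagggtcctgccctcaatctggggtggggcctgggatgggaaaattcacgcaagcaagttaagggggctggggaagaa

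The heavy chain windows resembled each other. Aligned with free ends, 166 of 190 paired bases of the H2-K1 and H2-D1 windows were identical (87.4%). Both held a match to the kappa B pattern GGGANNNNCC, to the interferon regulatory factor pattern GAANNGAAA (on the reverse strand), to TGACG, which is the core of the X2 box, and to CCAAT, the Y box, in that order towards the start. B2m held the kappa B pattern, TGACG and CCAAT as well, with the longer interferon-response pattern GAAANNGAAA in place of the shorter one. The shared stretch of Tap1 and Psmb9, whose start sites lie 225 bases apart on opposite strands, held TGACG and also CCAAT, along with a match to GGGCGG, the GC box. A match to TTCNNNGAA, the form of a STAT-binding element, occurred in the window of Psmb8 and in none of the others. Psmb10 held no match to any of the motifs, and Tapbp held CCAAT and the GC box. A second annotated window of H2-K1, shifted towards the gene, held another CCAAT. Over all 32851 windows of 250 bases in the table, 17.6% held GGGANNNNCC, 6.31% GAANNGAAA, 2.98% GAAANNGAAA, 17.8% TGACG, 33.8% CCAAT, 7.02% TTCNNNGAA and 32.7% GGGCGG. GAAANNGAAA and GAANNGAAA can overlap. These matches are letters in a reference sequence and were not tested for use in these cells.

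All 10 members were at 1 CPM or more in each of the 3 libraries, where 33.8% of all symbols reached that level. Per kb of exon, the chains of the class I molecule itself had the highest levels of the members. B2m, the invariant light chain, had 369, 394 and 395 CPM in libraries C1, C2 and C3. H2-D1, a classical heavy chain, had 362, 359 and 406 CPM. H2-K1, also a classical heavy chain, had 221, 216 and 247 CPM. C3 gave the highest value for each of these genes. In bulk RNA, fewer cells expressing a gene and less RNA per cell cannot be told apart.

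**Figure D1:**
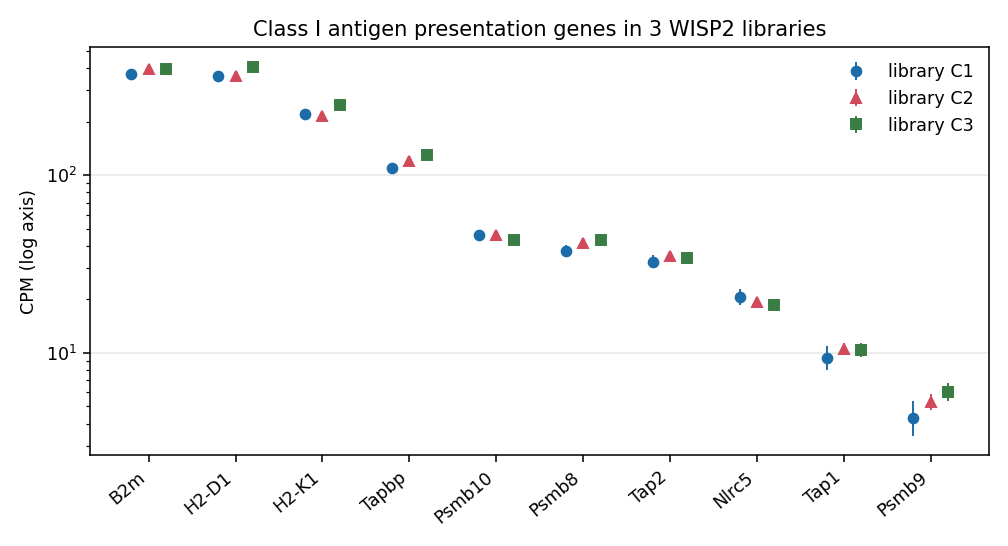
CPM of the 10 members in each library on a log axis; points are libraries and bars their exact 95% binomial intervals, which cover counting error only. B2m, H2-D1 and H2-K1 lie above 200 CPM in every library, and Tap1 and Psmb9 near or below 10 CPM.

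Per kb of exon, B2m stood at 449 ± 17.2 CPM per kb (SD, n = 3), above 99.15% of the 11543 genes at 1 CPM or more that had a length. H2-D1 stood at 146 ± 10.2 CPM per kb and H2-K1 at 77.6 ± 5.79 CPM per kb, above 96.8% and 93.7% of those genes. With this length, light chain exceeded H2-K1 by 2.53 ± 0.10 on the log2 scale (5.79-fold) and H2-D1 by 1.62 ± 0.09 (3.08-fold), in 3 of 3 libraries. With principal transcripts the folds were 3.19 and 2.51. Without division by length the log2 differences were 0.76 and 0.04. Against H2-K1 and H2-D1 summed, B2m was 2.01 ± 0.126 times as high, a ratio computed after the values were seen. The ratio depends on the annotated length and was 1.41 ± 0.0898 with the length of the principal transcript. H2-K1 was lower than H2-D1 in every library, with a log2 ratio per kb of -0.91 ± 0.01 (1.88-fold lower). The size of this gap depends on the length used. It was 1.27-fold with principal transcripts and 1.47-fold with the longest transcripts. Both heavy chains varied by over 1.1-fold between the libraries, while the SD of their log2 ratio was 0.01.

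Reads of class I heavy chains are hard to assign, because the genes are close copies. Of the 50-base windows along the longest annotated transcript, 8.11% for H2-K1 and 14.3% for H2-D1 also occurred in a transcript of another gene, chiefly of H2-Q and H2-T genes and, for H2-K1, of H2-D1. For windows of 100 bases the shares were 0% and 4.64%. B2m, Psmb8, Psmb9, Psmb10 and Nlrc5 shared no 50-base window, and Tap1, Tap2 and Tapbp at most 2.00%. In addition, 4T1 descends from a BALB/c mouse, whose class I alleles are of the d haplotype, whereas the mouse reference is C57BL/6, of the b haplotype. How reads of d alleles were counted was not tested, so the split of counts among heavy chains is uncertain.

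Of 28 other class I-like heavy chains listed, H2-L, H2-Q8, H2-Q9 and H2-T9 matched no symbol of the table and 24 were in it. Of these 13 reached 1 CPM in every library, 5 had fewer counts and 6 had 0 counts, among them H2-T3, H2-M1 and H2-M2. H2-Q4 and H2-Q6, non-classical genes of the Q region, had 102 ± 8.12 CPM (98.0, 96.5 and 111 in C1, C2 and C3) and 37.5 ± 2.68 CPM. H2-T22 had 24.9 ± 0.120 CPM and H2-Q1 20.4 ± 1.37 CPM. Per kb of exon the highest were H2-Q4 at 39.3 and H2-Q6 at 18.0 CPM per kb. Next were H2-M3, a chain that presents formylated peptides, at 8.50, H2-T22 at 7.29 and H2-Q1 at 7.12 CPM per kb. The order below H2-Q6 depends on the length used and is not settled. The principal transcripts of H2-T22 and H2-T23 have 1761 and 1472 bases, against 3414 and 2889 bases of exon. That of H2-M3 has 1438 bases, as does its exon. H2-T23, which encodes Qa-1, the ligand of the inhibitory receptor CD94/NKG2A, had 15.9, 16.6 and 18.9 CPM. H2-T23 and H2-M3 were named after their values were seen. H2-K1 and H2-D1 together made up 70.05% ± 0.364 of the summed CPM per kb of the H2 heavy chains, with 18 others counted. H2-L, with no row of its own, did not enter this share, which also rests on the exon lengths. C3 was the highest library for 8 of the 13 detected chains, and for 34.0% of all genes tested. Shared windows reached 32.0% of 50-base windows for H2-Q6 and 35.8% for H2-T22, so counts may have passed between these genes.

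The transporter was unevenly expressed. Tap1 had 9.36, 10.5 and 10.3 CPM in C1, C2 and C3, from 165, 704 and 492 counts. Tap2, the other subunit of the same heterodimer, had 32.7, 35.0 and 34.0 CPM. Both subunits were lowest in C1 and highest in C2. Per kb, Tap1 lay below Tap2 in 3 of 3 libraries, with a log2 ratio of -2.28 ± 0.05 (4.87-fold lower). The direction held with the principal transcript's length, at 2.89-fold. Tap1 stood above 15.1% of detected genes per kb and Tap2 above 52.4%. In the annotation, 18.5% of Tap2 exon bases and 3.87% of Tap1 exon bases lie opposite an exon of another gene, which for Tap1 is Psmb9. The strand setting of the counting was not stated in any label, so reads from such stretches cannot be told apart.

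Tapbp, or tapasin, bridges TAP and the empty heavy chain. It had 110, 120 and 129 CPM in C1, C2 and C3, or 33.0 ± 2.64 CPM per kb. It exceeded its homologue Tapbpl, which edits peptides outside the loading complex, by 2.74 ± 0.06 on the log2 scale (6.70-fold, 3 of 3 libraries). Tapbpl had 11.6 ± 1.07 CPM. Of the Tapbp exon bases, 24.9% lie opposite exons of other genes. All 14 genes of a list of loading and trimming factors were at 1 CPM or more, and 10 exceeded 100 CPM in every library. The general chaperones and folding enzymes that also serve class I assembly had the highest levels per kb, at 506 CPM per kb for Hspa5, 242 for Calr, 197 for Pdia3 and 176.5 for Canx. Their CPM were 2141 ± 89.1 for Hspa5, 698 ± 64.8 for Calr, 617 ± 20.0 for Pdia3 and 828 ± 21.5 for Canx. Erap1, the aminopeptidase that trims peptides in the endoplasmic reticulum, had 59.7, 64.6 and 61.1 CPM. Per kb it was 1.14-fold above Lnpep, an aminopeptidase of endosomes, and without division by length the direction turned round.

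The immunoproteasome subunits were each below the constitutive subunit that they replace. Psmb8 had 37.3, 41.4 and 43.1 CPM in C1, C2 and C3, against 48.7, 46.2 and 50.4 CPM of Psmb5. Psmb9 had 4.31, 5.31 and 6.01 CPM, against 121, 117 and 118 CPM of Psmb6. Psmb10 had 46.0, 45.8 and 43.4 CPM, against 193, 199 and 188 CPM of Psmb7. The values of Psmb9 rest on 76, 356 and 286 counts. In the annotation, 14.7% of Psmb8 and 5.79% of Psmb9 exon bases lie opposite an exon of another gene, which for Psmb9 is Tap1. Per kb, the log2 ratio was -2.17 ± 0.12 for Psmb8 to Psmb5 (4.49-fold lower), -5.49 ± 0.26 for Psmb9 to Psmb6 (44.8-fold lower) and -1.10 ± 0.03 for Psmb10 to Psmb7 (2.14-fold lower), in 3 of 3 libraries each. Of the summed level of each pair per kb, Psmb8 made up 18.2% ± 1.19, Psmb9 2.20% ± 0.379 and Psmb10 31.9% ± 0.433. These sizes rest on the lengths used: with principal transcripts the shares were 31.6% ± 1.73, 2.53% ± 0.435 and 17.1% ± 0.283. Psmb8 and Psmb10 therefore changed order with the length, and Psmb9 kept the lowest share.

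**Figure D2:**
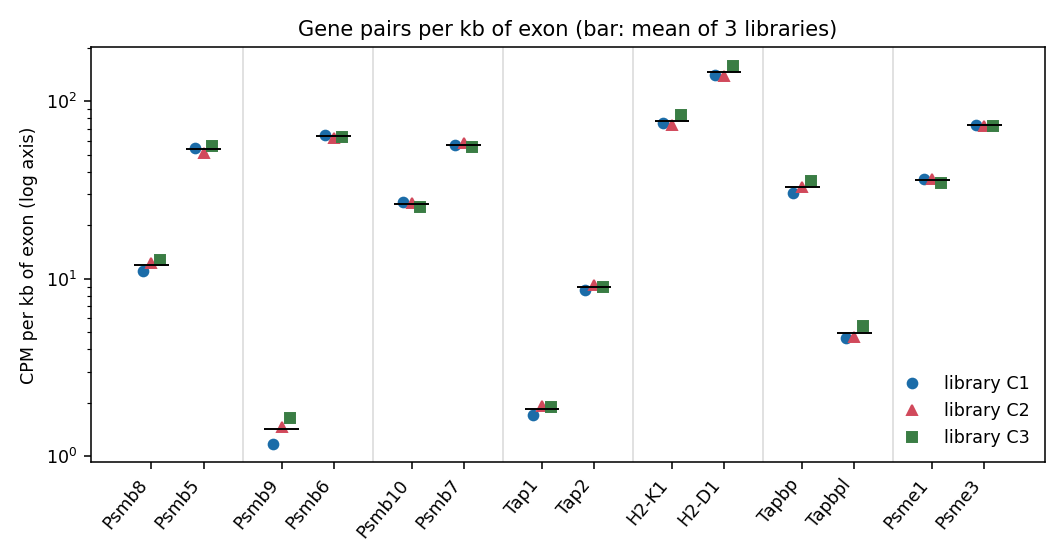
CPM per kb of exon on a log axis for 7 gene pairs, one point per library and a bar at the mean of 3. Psmb8, Psmb9 and Psmb10 each lie below the constitutive subunit to their right, and the gap is widest for Psmb9 and Psmb6.

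The proteasome activator PA28 is built of Psme1 and Psme2, which interferon-gamma induces, whereas Psme3 forms a separate nuclear activator. Psme1 had 80.4, 81.0 and 76.8 CPM and Psme2 55.4, 57.7 and 55.6 CPM. Psme3 had 217, 215 and 214 CPM. Per kb, the log2 ratio to Psme3 was -1.02 ± 0.03 for Psme1 (2.03-fold lower) and -1.20 ± 0.04 for Psme2 (2.29-fold lower). With principal transcripts these gaps shrank to 1.13-fold and 1.38-fold. Psme1 and Psme2 were within 1.13-fold of each other per kb, and which was higher depended on the length used. Of the 9 genes listed as counterparts, activators and assembly factor, 8 were at 1 CPM or more. They include Psme4 at 222 ± 11.1 CPM and the assembly factor Pomp at 127 ± 2.97 CPM. Psmb11, the thymus-specific subunit, had 0 counts.

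Tap1 and Psmb9, which share an upstream stretch, were the lowest members per kb of exon. Tap1 exceeded Psmb9 by 0.38 ± 0.17 on the log2 scale (1.30-fold, 3 of 3 libraries), but with principal transcripts Tap1 lay 1.12-fold below Psmb9. Their order is therefore not settled. The order of the members per kb was B2m, H2-D1, H2-K1, Tapbp, Psmb10, Psmb8, Tap2, Nlrc5, Tap1 and Psmb9, and the ranges of neighbours over the 3 libraries did not overlap. The first 7 places were the same with the longest and with the principal transcript. With the principal transcript the last places were Psmb9 at 3.85 ± 0.632, Tap1 at 3.41 ± 0.210 and Nlrc5 at 2.58 ± 0.136 CPM per kb.

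Nlrc5, the class I transactivator, had 20.7, 19.3 and 18.7 CPM in C1, C2 and C3, from 365, 1294 and 889 counts. Ciita, the corresponding transactivator of class II genes, had 2, 5 and 4 counts. Summed over the libraries the ratio of Nlrc5 to Ciita counts, not corrected for length, was 232 (95% counting interval 129 to 465). Per kb within libraries it was 213-fold. Of 17 genes listed for class I transcription, Ciita was the only one that did not reach 1 CPM in every library. The RFX subunits, which NLRC5 needs at the X box, stood at 24.4 ± 0.670 CPM (Rfx5), 13.5 ± 0.193 CPM (Rfxap) and 7.96 ± 1.02 CPM (Rfxank), and were named after their values were seen. Others on the list were the NF-kB subunits Nfkb1 at 146 ± 2.29 CPM and Rela at 99.8, 96.1 and 104 CPM in C1, C2 and C3, Creb1 at 124 ± 5.86 CPM and Irf1, the interferon-induced factor that binds class I promoters, at 74.7 ± 1.74 CPM.

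Interferon receptors were expressed and interferons were not detected. All 12 genes listed with the receptors and Janus kinases, among them also Socs1, Socs3 and Ptpn2, were at 1 CPM or more. Jak1, which serves both interferon receptor types, had 163, 171 and 169.9 CPM, and Jak2, which serves the interferon-gamma receptor, 85.0, 94.1 and 93.7 CPM. Ifnar1, a chain of the type I receptor, stood at 60.3 ± 0.547 CPM, and Ptpn2, a phosphatase that restrains this signalling, at 53.6 ± 2.40 CPM. The interferon-gamma receptor chains Ifngr1 and Ifngr2, named after their values were seen, stood at 28.4 ± 0.473 and 46.0 ± 1.05 CPM. All 11 listed interferon genes, Ifng, Ifnb1 and Ifna1 among them, had 0 counts. Taken as 3 counts per library, a count of 0 is compatible with levels of up to 0.170, 0.0448 and 0.0631 CPM in C1, C2 and C3. Class II genes were near the floor. Of 9 in the table only Cd74, the invariant chain, at 5.08 ± 0.533 CPM and H2-DMa at 2.82 ± 0.230 CPM reached 1 CPM. H2-Ab1 had 0.288 CPM and H2-Oa 0.0289 CPM on average, and H2-Aa had 0 counts.

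**Figure D3:**
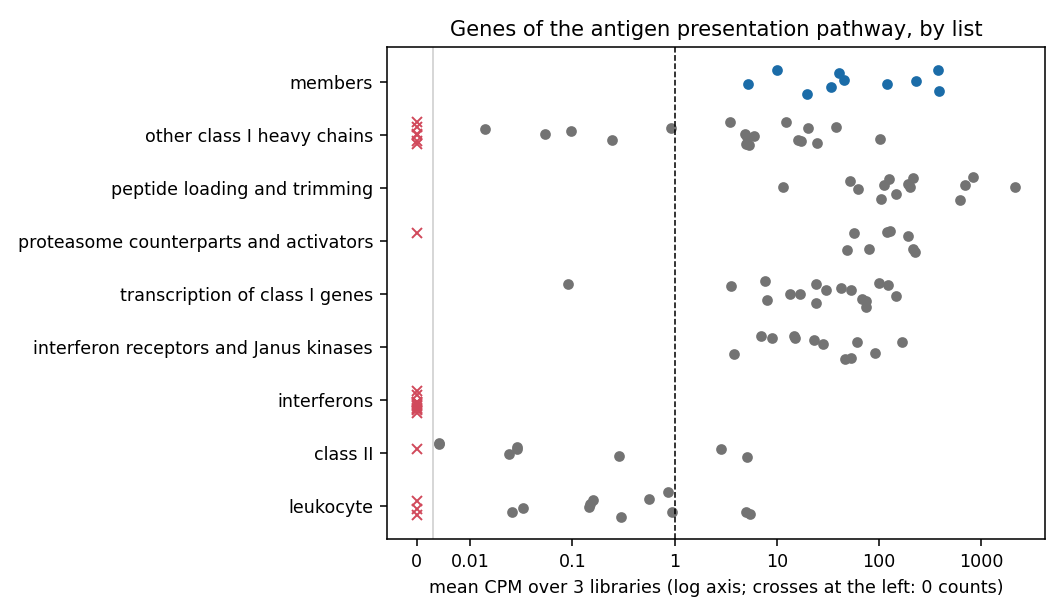
Mean CPM over 3 libraries on a log axis for each gene of the members and of 8 lists; the dashed line marks 1 CPM and crosses at the left mark genes with 0 counts. All 10 members lie right of the line, and all 11 interferon genes are crosses.

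Between the libraries most members differed little. Their SD ran from 3.20% of the mean (Psmb10) to 16.4% (Psmb9), with a median of 6.57%, where the median over the 13026 genes that passed the filter on low counts was 5.41%. All 10 members passed that filter. Each gene was tested against counting noise (Poisson dispersion test over 3 libraries, Benjamini-Hochberg over all 13026 genes). This test called 5 of the 10 members, where it called 39.3% of all genes, so the members' share is near the background in that fit. The called members were H2-D1 (adjusted p = 5.75e-39), H2-K1 (6.25e-28), Tapbp (1.52e-09), B2m (1.08e-05) and Psmb8 (0.0144). The test gains power with counts, and the called members include the 4 with the most counts. Without C3 the heavy chains and Psmb8 were no longer called and 2 members were, beside 12.9% of all genes. Without C1 B2m and Psmb8 were not called and 3 members were, beside 36.8% of all genes. Without C2 the test called 5 members but 13.8% of all genes, so the nearness to the background does not hold without C2. Against genes of similar level, the edgeR quasi-likelihood F test called 0 of 10 members and 0.0691% of all genes. At an unadjusted p under 0.05 it picked 0 members and 5.15% of all genes. Without C2 it picked 3 members (H2-K1, H2-D1 and Tapbp) and 5.50% of genes, and without the filter on low counts the same 3 and 5.93%. Of the pathway genes tested, the Poisson test called 6 of 14 other heavy chains, 11 of 14 loading and trimming genes and 3 of 8 proteasome genes. It also called 6 of 16 transcription genes, 2 of 12 genes of the receptor and kinase list and 0 of 2 class II genes. The F test called none of these pathway genes. At an unadjusted p under 0.05 the F test picked Calr alone among these. Of 4 leukocyte markers tested, the Poisson test called 3 and the F test 0, and 2 had an unadjusted F test p under 0.05.

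**Figure D4:**
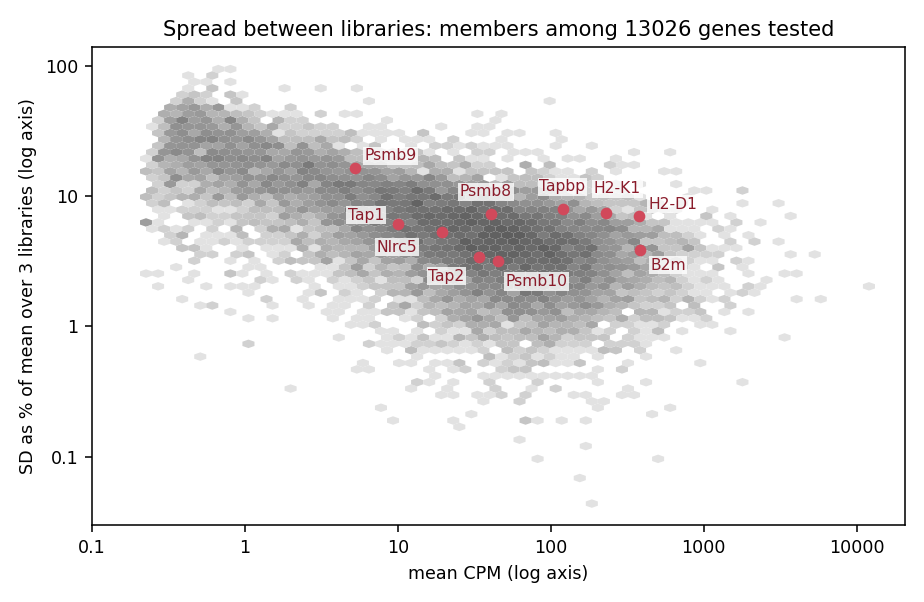
SD over 3 libraries as a percentage of the mean, against mean CPM, both on log axes; grey cells count the 13026 genes tested and red points are the members. The members lie inside the grey cloud, with SDs of 3.20% to 16.4% of the mean.

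The direction of the differences was alike in several members. C3 was the highest library for 6 of 10 members (H2-K1, H2-D1, B2m, Tapbp, Psmb8 and Psmb9), where it was the highest for 34.0% of the genes tested. C1 and C2 were the highest for 2 members each, against 30.9% and 35.1% of the genes tested. C1 was the lowest for 6 of 10 members and for 29.6% of the genes tested. The median deviation of the members from their own means was -0.06 in C1, 0.03 in C2 and 0.06 in C3 on the log2(CPM + 1) scale, and over all genes tested it was 0.00124, 0.00198 and -0.0032. Psmb9 had the widest range, 1.39-fold between C3 and C1, and its 95% counting intervals were 5.33 to 6.75 CPM in C3 and 3.40 to 5.40 CPM in C1, which overlap slightly. Nlrc5 and Psmb10 went the other way, highest in C1 and lowest in C3, by 1.11-fold and 1.06-fold. Neither passed either test of spread. C1, which was the lowest library for 6 members, held the highest summed leukocyte markers, and their part in these differences was not tested. Of the 6 epithelial markers 5 were likewise highest in C3, and Cdh1 was lowest there, at 431 CPM against 437 CPM in C1 and 463 CPM in C2.

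**Figure D5:**
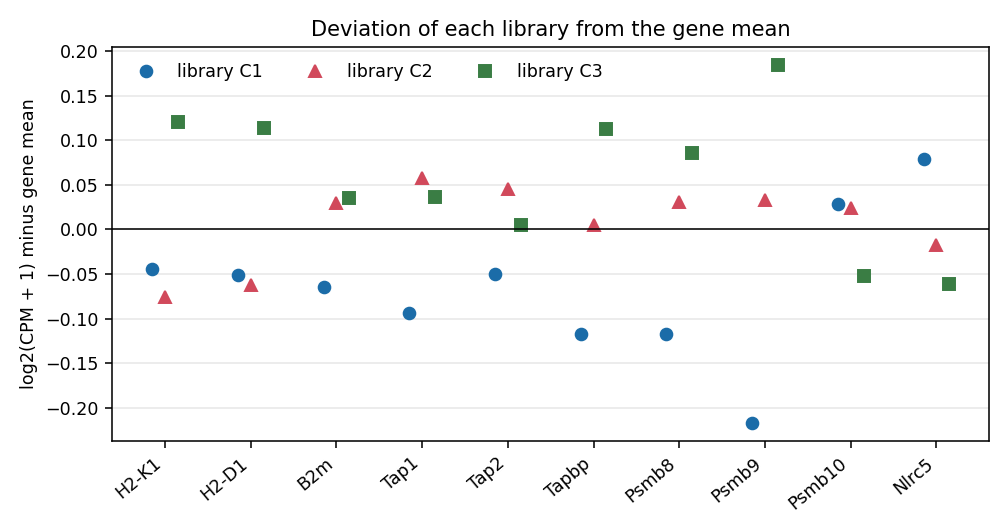
Difference of log2(CPM + 1) in each library from the gene's mean over the 3 libraries, for the 10 members. H2-K1, H2-D1, Tapbp, Psmb8 and Psmb9 are highest in C3, and Nlrc5 and Psmb10 are lowest there.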

How the data were processed

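Poly(A) RNA of 3 WISP2 over-expressing 4T1 libraries was sequenced from stranded libraries, per the labels' protocols. The authors deposited whole-number read counts per gene symbol, not normalized, as the values show. CASAVA 1.7, BWA, STAR, HTSeq and the build mm9 are named in the submitters' processing notes, without roles. The annotation, the strand setting and the handling of multiply matching reads were not stated in those notes or in the labels. Column names match no sample title, so columns were assigned to the group as a whole. The protocol in the labels describes Wisp1 constructs, and not that of WISP2.

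CPM used column totals. Lengths are unions of exons in GENCODE M21 (31440 of 34591 symbols, all 10 members). Its build is not that of the counts. Its coordinates gave the exon overlaps between genes, and the promoter windows carry the coordinates of the RefSeq promoter table. Whether the overlaps hold in the annotation used for the counts was not tested. Log2 ratios between genes were taken within libraries with 0.5 counts added, and the ratio of Nlrc5 to Ciita was also taken from summed counts. No test of these ratios is reported, since flipping signs exactly over 3 libraries gives a two-sided p of at least 0.25. Spread was fitted with edgeR 4.0.16 (TMM, filterByExpr, intercept only) over 13026 genes in R 4.3.3, at an adjusted p of 0.05. Simulated counts with Poisson noise, or with the same dispersion for every gene, were also fitted. Their outcome is not reported here. Intervals are exact 95% Clopper-Pearson intervals and cover counting error only. DESeq2 1.42.0 gave alternative size factors. Members, pairs and lists were chosen with earlier results of these data known. Named beside the members are the genes of preset pairs and, per list, the 4 with the highest CPM and up to 3 with 0 counts. A few genes picked in this way are not reported here.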

Additional observations from a re-analysis of the deposited data

How the results depend on the processing

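Levels of all 10 members moved by less than 1 SD under TMM scaling and DESeq2 size factors. All 10 stayed at 1 CPM or more under TMM scaling and without each library in turn, and at 0.5 CPM or more. At a threshold of 5 CPM in every library 9 did. The share of all symbols is given for 1 CPM only. The Poisson test called 5118 genes, and 1667 to 4908 when a library was left out; for members it called 5, and 2 to 5. Without C2 it called 5 members and 1761 genes (13.8%), and without the filter 5 members and 26.5% of genes. The edgeR F test called 9 genes, and 14 with column totals, 171 without the filter, 0 with a robust prior (588 genes at an unadjusted p under 0.05) and 3 to 52 without 1 library. It called 0 members in each of these settings. At an unadjusted p under 0.05 it picked 3 members (H2-K1, H2-D1 and Tapbp) without the filter, beside 5.93% of genes. The same 3 were picked without C2, beside 5.50% of genes, and 0 members in the other settings. Ratios depended on length. Without division by length the log2 ratio was -0.26 for Psmb8 to Psmb5, -4.52 for Psmb9 to Psmb6, -2.10 for Psmb10 to Psmb7, -1.44 for Psme1 to Psme3, -1.94 for Psme2 to Psme3, 0.50 for Psme1 to Psme2, -0.72 for H2-K1 to H2-D1, 0.76 for B2m to H2-K1, 0.04 for B2m to H2-D1, -1.75 for Tap1 to Tap2, 0.96 for Tap1 to Psmb9, 3.37 for Tapbp to Tapbpl and -0.77 for Erap1 to Lnpep, which reversed. With the longest transcript it was -1.34, -6.10 and -0.98 for the immunoproteasome pairs in the same order, -0.47 for Psme2 to Psme3, -0.55 for Psme1 to Psme2, which reversed, -0.56 for H2-K1 to H2-D1, 1.89 for B2m to H2-K1, 1.33 for B2m to H2-D1, -1.93 for Tap1 to Tap2, 3.07 for Tapbp to Tapbpl, 0.33 for Erap1 to Lnpep and 7.23 for Nlrc5 to Ciita. With the principal transcript, an alternative chosen after seeing the data, it was -1.11 for Psmb8 to Psmb5, -2.28 for Psmb10 to Psmb7, -0.18 for Psme1 to Psme3, -0.47 for Psme2 to Psme3, 0.29 for Psme1 to Psme2, -0.35 for H2-K1 to H2-D1, 1.67 for B2m to H2-K1, 1.33 for B2m to H2-D1, -1.53 for Tap1 to Tap2, -0.17 for Tap1 to Psmb9, which reversed, 3.07 for Tapbp to Tapbpl, 0.33 for Erap1 to Lnpep and 7.23 for Nlrc5 to Ciita. A pseudocount of 5 gave 6.63 for Nlrc5 to Ciita, whose few counts limit that ratio. No paired analysis was possible because all libraries belong to 1 group.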

Other observations

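Genes that return misfolded heavy chains to folding or degradation were all expressed. The 7 listed genes found in the table were at 1 CPM or more in every library. The ATPase Vcp, which pulls proteins out of the endoplasmic reticulum, stood at 511 ± 6.82 CPM (SD, n = 3), the glucosyltransferase Uggt1, which senses misfolded glycoproteins and edits class I peptides together with Tapbpl, at 254 ± 8.57 CPM, and Derl1 at 184 ± 9.14 CPM. The Poisson test called 3 of the 7 (Uggt1, Derl1 and the ubiquitin ligase Syvn1), beside 39.3% of all genes tested. The edgeR F test called none. In the F test Syvn1 had an unadjusted p = 0.0355 (adjusted p = 0.916), where 5.15% of all genes tested had an unadjusted p under 0.05.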
